A study of Homo sapiens with 12 samples.

Results

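Cytosolic ribosomal proteins are the protein parts of the ribosome that translates nuclear mRNAs. The large subunit carries the RPL proteins and the small subunit the RPS proteins, and the genes were taken by symbol: RPL or RPS with a number, the acidic stalk genes RPLP0, RPLP1 and RPLP2, and RPSA. Of 25680 gene symbols in the tables, 84 matched and 83 had a count in at least 1 library, 51 of the large and 32 of the small subunit. RPL10L, a testis paralogue of RPL10, was listed at 0 in every library. RNA was sequenced from 2 human multiple myeloma cell lines, malignant plasma cells in culture. The 4 groups of 3 libraries were MM.1S with 6 µM IT848 for 6 h, MM.1S with the solvent DMSO for 6 h, U266 with 6 µM IT848 for 6 h, and U266 with DMSO for 6 h. The series describes IT848 as an inhibitor of NF-kB. Nothing in the labels states that replicates are independent cultures. The p-values therefore measure the spread among these libraries, which may be technical.

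Ribosomal protein mRNAs are among the most abundant in growing cells. They begin with a C and a run of pyrimidines, the terminal oligopyrimidine tract, through which the mTOR kinase and the RNA-binding protein LARP1 control their translation. Plasma cells depend on a large capacity for protein synthesis because they secrete antibody. Fewer cells and less RNA per cell cannot be told apart in bulk RNA, and all levels below are relative to the other RNA of the library.

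The oligopyrimidine tract was looked for in the RefSeq promoter table (build GRCh38.p14), which held 66 of the 83 genes. A tract was counted where a C was followed by at least 4 bases that were C or T, beginning within 10 bases of the annotated start, on the gene's own strand only. It was found in 55 of the 66 genes (83.3%), against 32.5% of all 35116 promoters in the table. A tract of 10 or more bases was found in 59.1% of the genes and in 4.27% of all promoters. The windows below run from 15 bases before to 15 bases after the start, with the tract in capitals. They are shown for the genes with the largest and smallest responses to IT848 in MM.1S, for 3 genes whose response differed between the lines, and for 3 pairs of paralogues.
RPL9, chr4:39458908-39458937, minus strand: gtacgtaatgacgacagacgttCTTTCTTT
RPS3A, chr4:151099613-151099642, plus strand: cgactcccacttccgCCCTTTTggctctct
RPS29, chr14:49598696-49598725, minus strand: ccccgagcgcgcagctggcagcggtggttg
RPLP2, chr11:809952-809981, plus strand: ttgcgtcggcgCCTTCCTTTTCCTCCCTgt
RPL4, chr15:66504841-66504870, minus strand: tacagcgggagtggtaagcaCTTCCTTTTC
RPL7L1, chr6:42879601-42879630, plus strand: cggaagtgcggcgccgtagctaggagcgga
RPS6, chr9:19380222-19380251, minus strand: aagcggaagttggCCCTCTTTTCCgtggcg
RPL3, chr22:39319609-39319638, minus strand: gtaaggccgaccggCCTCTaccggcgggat
RPL12, chr9:127451392-127451421, minus strand: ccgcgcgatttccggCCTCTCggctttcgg
RPS27, chr1:153990747-153990776, plus strand: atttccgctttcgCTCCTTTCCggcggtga
RPS27L, chr15:63157463-63157492, minus strand: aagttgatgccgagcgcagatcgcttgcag
RPL22, chr1:6199581-6199610, minus strand: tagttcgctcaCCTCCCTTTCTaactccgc
RPL22L1, chr3:170870181-170870210, minus strand: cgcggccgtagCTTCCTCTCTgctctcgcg
RPL26, chr17:8383179-8383208, minus strand: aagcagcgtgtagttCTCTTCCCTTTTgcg
RPL26L1, chr5:172958714-172958743, plus strand: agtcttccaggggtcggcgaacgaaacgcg

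In the tract of RPL4, 2 further bases lie beyond the window. Among the pairs, RPS27 and RPL26 have a tract in this window and their paralogues RPS27L and RPL26L1 have none, whereas RPL22 and RPL22L1 both have one. RPLP2, with a tract of 17 bases, and RPL4, with 12, responded least among the genes with a tract shown here, and RPS29, with no tract in the window, was among the 5 that responded most. Among genes not shown, RPL7A, RPL39 and RPL34, with tracts of 23, 22 and 18 bases, rose by 0.25, 0.57 and 0.62 in MM.1S. A relation between tract length and response was not tested. The 11 matched genes without a tract were RPL6, RPL7L1, RPL13, RPL15, RPL17, RPL26L1, RPL27, RPS4X, RPS27A, RPS27L and RPS29. A missing match says only that these letters are not in the window around the annotated start. A single start was used for each gene of the group, that with the lowest coordinate where the table held several. Other starts of such a gene were not searched, whereas the share of all promoters counts every start.

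The libraries held 50627690 to 72039748 counts each, summed over all transcripts. MM.1S expressed MAF at 619 to 944 counts per 1000000 counts of the library (CPM), against 35.6 to 44.6 in U266. CCND1 had 2.76 to 6.21 CPM in MM.1S and 384 to 509 in U266. The plasma cell genes SDC1, TNFRSF17, XBP1, IRF4, PRDM1 and MZB1 summed to 2456 to 3635 CPM in MM.1S and 1781 to 2637 in U266, although MZB1 alone had 237 to 267 CPM in MM.1S and 7.09 to 9.14 in U266. Marker sums were 1.6 to 2.43 CPM in MM.1S and 0.939 to 1.51 in U266 for T and NK cells, 0.459 to 0.91 and 2.89 to 4.76 for myeloid cells, and 11.1 to 21.3 and 21.8 to 34.2 for stromal cells. LYZ of myeloid cells and KRT19 of epithelial cells were at or near 0 in both. In 2 libraries, genes silent in that line stood above the level of their sister libraries. MM.1S DMSO replicate 2 held 0.388% of the U266 level of 21 such genes, against 0.0472% and 0.049% in the other MM.1S DMSO libraries, and U266 IT848 replicate 1 held 0.901% of the MM.1S level of 16 genes, against 0.117% and 0.0908%. Results without these 2 libraries are given beside each comparison.

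Levels per transcript length spanned a wide range. In TPM, transcripts per 1000000 transcripts of the library, of the most counted transcript, DMSO-treated MM.1S had RPLP1 at 2762 ± 83.3, RPS27 at 1696 ± 188 and RPS28 at 1527 ± 67.6 at the top (SD, n = 3). The highest 3 in DMSO-treated U266 were RPLP1 at 4772 ± 101, RPS27 at 3158 ± 153 and RPS3A at 2369 ± 88.2. RPS3A had 1129 ± 95.9 TPM in MM.1S, where it ranked 16. RPLP1 and RPS27 held ranks 1 and 2 in both lines, and their values did not overlap within either line. At the low end, RPL22L1 had 10.4 ± 0.32 TPM in DMSO-treated MM.1S and 9.6 ± 0.472 TPM in DMSO-treated U266. The muscle paralogue RPL3L had 18 counts over all libraries and was not tested. RPS18 had only 153 counts over all libraries. The tables list it at 6 copies, among which reads may have been lost, so its level is uncertain.

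IT848 raised most ribosomal protein mRNAs in MM.1S by a small amount, a direction that was lost (median -0.03) once the length trend of other abundant genes was taken out, as described after the single genes. Of 82 genes tested, 74 were higher at an adjusted p under 0.05, where 18.7% of all 16782 tested genes were higher and 19.6% lower. The median log2 fold change of the 82 genes was 0.41, and that of all tested genes was -0.01. RPL7L1, a nucleolar paralogue of RPL7 that acts in assembly of the large subunit, was the only gene called lower. No gene reached a log2 fold change of 1, and 18 exceeded 0.5. In 63 of the 82 genes all 3 IT848 libraries lay above all 3 DMSO libraries, as in 22.4% of all tested genes, and in 1 gene they lay below, as in 24.9% of all tested genes. Without the 2 libraries with reads of the other line, 67 genes were called higher.

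The genes together took 4.24%, 4.83% and 5.70% of counts in the MM.1S IT848 libraries, against 3.56%, 3.75% and 4.10% in the MM.1S DMSO libraries. No IT848 library overlapped the DMSO range, and replicate 3 with IT848 stood highest. The means were 4.92 ± 0.736% with IT848 and 3.8 ± 0.275% with DMSO (SD, n = 3 each), a difference of 1.12 percentage points. The exact two-sided permutation p was 0.1, the smallest that 3 against 3 libraries can give. Without IT848 replicate 3 the difference was 0.729 points. Without DMSO replicate 2 it was 1.09 points.

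**Figure D1:**
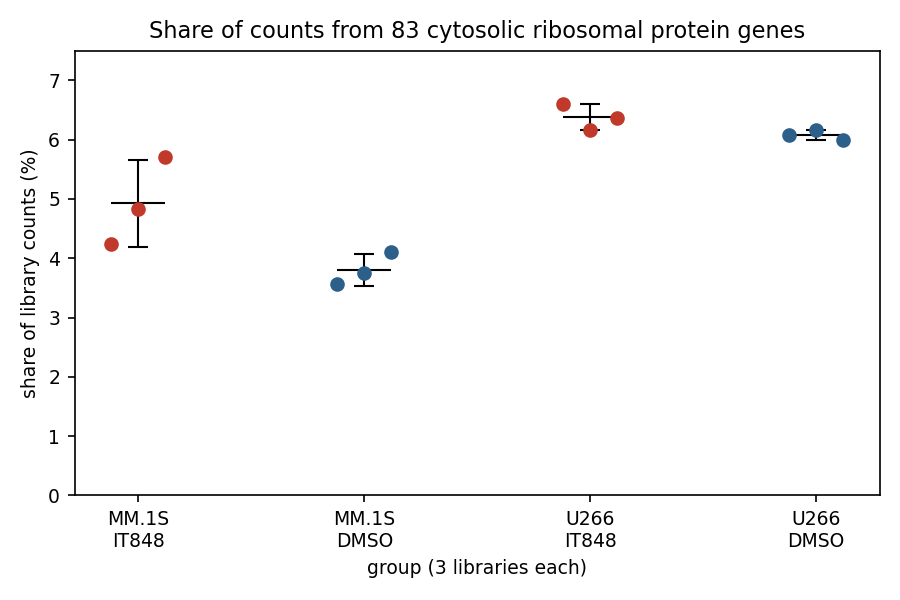
Share of each library's counts (y axis, percent) that fell on the 83 ribosomal protein genes, by group on the x axis, with IT848 in red and DMSO in blue. Points are libraries, the bar is the mean and the whiskers are the SD. The MM.1S libraries lie between 3.56% and 5.70%, all below the U266 libraries, and the widest spread is in MM.1S with IT848.

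The small subunit genes had the larger median, 0.45 with 31 of 32 called higher, against 0.36 with 43 of 50 called higher in the large subunit. No test of that difference was made. RPL9, a large-subunit protein, had 396, 555 and 876 CPM in the MM.1S IT848 libraries, against 294, 336 and 371 in the DMSO libraries. Every IT848 library stood above the DMSO libraries, and the IT848 libraries were spread more widely than the DMSO ones. Its log2 fold change was 0.87 ± 0.23 (SE, adjusted p = 0.0131), and without DMSO replicate 1 it was 0.79 with adjusted p = 0.0522. RPS3A, a small-subunit protein, had 1060, 1492 and 2299 CPM with IT848, against 806, 891 and 998 with DMSO, a change of 0.85 ± 0.22 (adjusted p = 0.012). RPS29, a zinc-finger protein of the small subunit, had 90.5, 123 and 175 CPM with IT848, against 68.0, 80.8 and 87.9 with DMSO. Its change was 0.71 ± 0.19 (adjusted p = 0.0125) and missed the threshold without DMSO replicate 1, at 0.62 with adjusted p = 0.0538. In each of these genes the same IT848 library, replicate 3, was the highest, and without it the median of the 82 genes was 0.27.

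RPL31 had 523, 685 and 926 CPM with IT848, against 417, 438 and 505 with DMSO, a change of 0.65 ± 0.15 (adjusted p = 0.00549). It rose with no overlap between the groups.

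At the other end, RPL7L1 had 31.5, 31.9 and 33.6 CPM with IT848, against 35.8, 36.8 and 37.0 with DMSO. Its log2 fold change was -0.18 ± 0.05 (adjusted p = 0.0126), and without IT848 replicate 1 or IT848 replicate 2 it missed the threshold, at -0.14 and -0.16, as it did without the 2 libraries with reads of the other line (-0.16, adjusted p = 0.074). RPL4, which lines the peptide exit tunnel, had 582, 592 and 643 CPM with IT848, against 561, 585 and 626 with DMSO, overlapping groups with a change of 0.04 ± 0.05. The 7 genes called in neither direction were RPL4, RPL5, RPL22, RPL22L1, RPL23A, RPLP2 and RPS18. RPS18 had 25, 22 and 22 counts with IT848, against 39, 14 and 20 with DMSO.

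**Figure D2:**
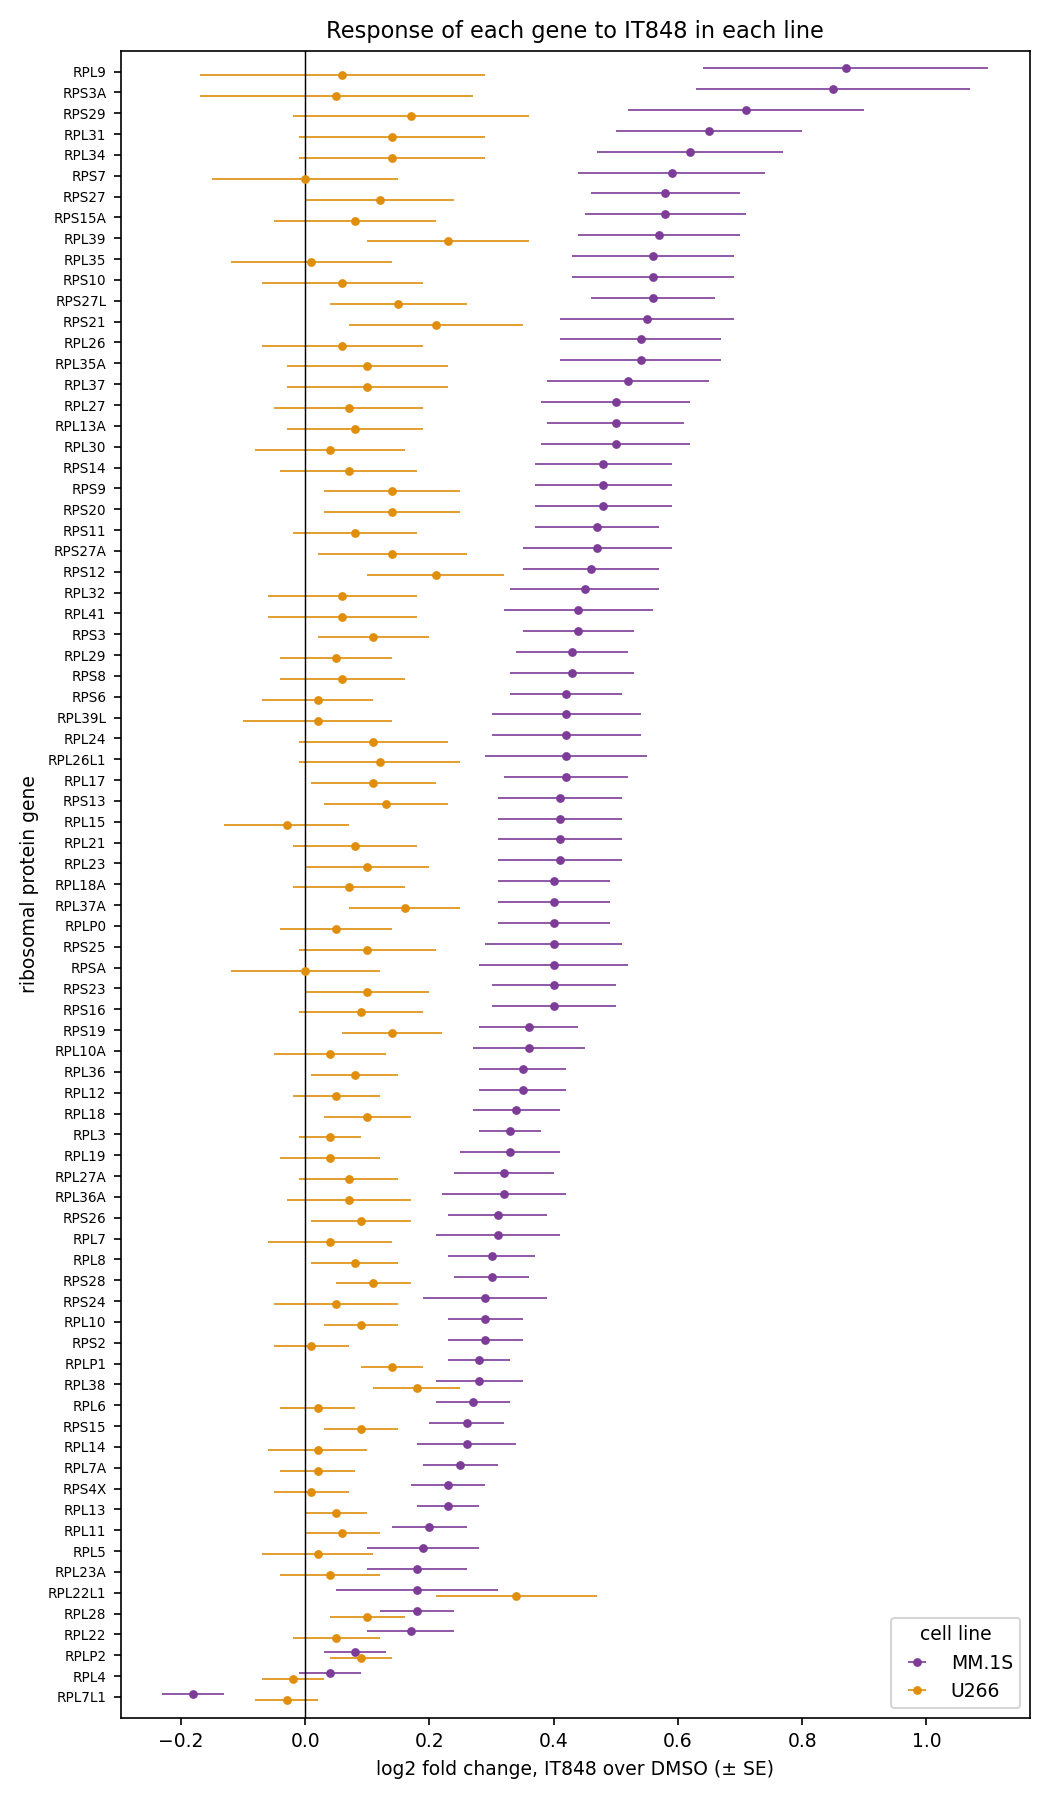
Log2 fold change of IT848 over DMSO (x axis, ± SE) for each ribosomal protein gene (y axis), in MM.1S (purple) and U266 (orange), ordered by the MM.1S value. RPS18, for its few counts, and 2 other genes are not drawn. Nearly all MM.1S values lie right of 0, between -0.18 and 0.87, and the U266 values lie closer to 0. With the length trend of other genes over 100 CPM removed, the MM.1S median was -0.03.

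The acidic stalk is a protein complex that recruits the GTPases of translation to the ribosome. In MM.1S 2 of its 3 genes were called higher, and the difference between the genes was not tested. RPLP0, its base, had 1185, 1416 and 1630 CPM with IT848 in MM.1S, against 997, 1060 and 1147 with DMSO (0.40 ± 0.09, adjusted p = 0.00283). RPLP1 rose by 0.28 ± 0.05 (adjusted p = 0.00104), with no overlap between 1357, 1507 and 1611 CPM with IT848 and 1162, 1232 and 1290 with DMSO. RPLP2 had 221, 236 and 240 CPM with IT848, against 211, 219 and 231 with DMSO, overlapping groups with a change of 0.08 ± 0.05 (adjusted p = 0.205). When the length trend of other genes over 100 CPM was removed, RPLP0 was called higher at 0.17 (adjusted p = 0.00415), and RPLP1 and RPLP2 were called lower at -0.27 (adjusted p = 0.00324) and -0.47 (adjusted p = 0.000802).

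RPL5 and RPL11, which bind MDM2 together with the 5S ribosomal RNA, stood at 0.19 ± 0.09 (adjusted p = 0.112) and 0.20 ± 0.06 (adjusted p = 0.0219). Without IT848 replicate 1, RPL5 was called at 0.31, and RPL11 missed the threshold without DMSO replicate 1 (0.15), DMSO replicate 2 (0.18) or IT848 replicate 3 (0.15). Both were called lower when the length trend of other genes over 100 CPM was removed, RPL5 at -0.12 (adjusted p = 0.0165) and RPL11 at -0.26 (adjusted p = 0.00313). RPS6, the substrate of the S6 kinases, had 310, 339 and 423 CPM with IT848, against 253, 264 and 285 with DMSO (0.42 ± 0.09, adjusted p = 0.00231). RPS14 and RPS19, whose loss marks 5q- syndrome and Diamond-Blackfan anaemia, rose by 0.48 ± 0.11 and 0.36 ± 0.08. RPL10, a late addition to the large subunit, rose by 0.29 ± 0.06. RPS3 and RPSA, with roles also known outside the ribosome, rose by 0.44 ± 0.09 and 0.40 ± 0.12, and RPSA missed the threshold without DMSO replicate 1 at 0.36 (adjusted p = 0.0695) or DMSO replicate 2 at 0.39 (adjusted p = 0.052). With the length trend of other genes over 100 CPM removed, RPS6 (0.03), RPS14 (0.06), RPS19 (-0.02) and RPSA (0.13) also lost their calls. In that fit RPL10 (0.24, adjusted p = 0.000443) and RPS3 (0.38, adjusted p = 0.00196) kept theirs.

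Paralogues were compared with their partners. RPS27L and RPS27 rose by 0.56 ± 0.10 and 0.58 ± 0.12 in MM.1S. RPS27L had 37.5, 42.2 and 49.1 CPM with IT848, against 27.1, 29.1 and 31.3 with DMSO, and RPS27 had 322, 365 and 475 CPM with IT848, against 233, 246 and 299 with DMSO. Neither overlapped. RPL39L and RPL39 rose by 0.42 ± 0.12 and 0.57 ± 0.13, and RPL26L1 and RPL26 by 0.42 ± 0.13 and 0.54 ± 0.13. RPL22L1 and RPL22 stood at 0.18 ± 0.13 and 0.17 ± 0.07, and neither passed the threshold. Before any length trend was removed, only the pair of RPL7L1 and RPL7 had opposite signs, at -0.18 ± 0.05 and 0.31 ± 0.10. RPL7, RPL26L1 and RPL39L missed the threshold without DMSO replicate 1, at 0.26, 0.36 and 0.40, and RPL7 and RPL26L1 also without DMSO replicate 2, at 0.30 and 0.41, or IT848 replicate 3, at 0.17 and 0.23. When the length trend of other genes over 100 CPM was removed, RPL7L1 and RPL7 were both negative, at -0.39 and -0.07. In that fit RPS27L and RPS27 had opposite signs, at 0.27 (adjusted p = 0.00459) and -0.07 (adjusted p = 0.263). So did RPL26L1 and RPL26, at -0.03 and 0.01. Paralogues share sequence, and how the authors counted reads with several alignments is not given in the sources used here.

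Transcript length moved with the MM.1S response. Ribosomal protein transcripts are short, with a median of 764 bases among the tested genes of the group and 2836 bases among all tested genes. Among genes outside the group with more than 100 CPM on average, the 23 with under 800 bases had a median log2 fold change of 0.45 in MM.1S and all 23 were called higher. The median was 0.21 for 161 genes of 800 to under 1500 bases, 0.04 for 635 genes of 1500 to under 3000 bases and -0.10 for 1259 genes of 3000 bases or more. The 43 ribosomal protein genes under 800 bases had a median of 0.42, close to that of the 23 other short genes. Those 23 include FAU (0.36), which encodes a ribosomal protein, and RPL13AP5 (0.50) and RPL21P28 (0.41), whose symbols derive from ribosomal protein genes. The compared sets are therefore not fully separate. For 28 ribosomal protein genes of 800 to under 1500 bases the median was 0.35. It was 0.41 for 7 of 1500 to under 3000 bases and 0.28 for 4 of 3000 bases or more. Each of these medians stood above that of the other abundant genes of the same length class. Over 2074 other abundant genes, Spearman's rho between length and a library's deviation from the gene's mean in that line was 0.007, -0.365 and -0.511 in the MM.1S IT848 libraries, and 0.48, 0.398 and 0.197 in the MM.1S DMSO libraries. The rho is across genes, which share a library and are not independent replicates. The part of transcript length in the MM.1S response was not tested.

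With each library's length trend over all other genes removed, 60 ribosomal protein genes were called higher in MM.1S and 1 lower, with a median of 0.24 (19.1% and 18.2% of all tested genes were called higher and lower). With the trend taken only from other genes over 100 CPM, 22 were called higher and 26 lower, with a median of -0.03 (16.8% and 22.4% of all tested genes). That second trend was chosen after seeing the data. The direction of the group in MM.1S depended on which genes set the trend. In that second adjusted fit RPS29, RPS3A and RPL9 were the 3 highest, at 0.52, 0.48 and 0.46, with adjusted p-values of 0.0146, 0.0195 and 0.0231. The lowest tested genes besides RPS18 were RPLP2 at -0.47, RPL7L1 at -0.39 and RPL38 at -0.34. These values rest on the listed length of the most counted transcript of each gene. RPL27A, RPL13, RPL28 and RPS23, listed at 4879, 4672, 4401 and 3314 bases, were called higher, at 0.38, 0.28, 0.21 and 0.44. RPL22 and RPL22L1, listed at 2085 and 1962 bases, were not called. The part of listed length in these calls was not tested. Only 8 other abundant genes were under 600 bases, against 25 ribosomal protein genes, so the trend rests on few genes at the lengths of the shortest ribosomal proteins. FAU and RPL21P28 are among the 8, so a ribosomal protein gene and a symbol derived from one partly set that trend. MIR4426, listed at 60 bases, is also among the 8. Within the group, rho between the MM.1S change and length was -0.18, and rho with GC content was -0.23, over 82 genes of the same 6 libraries.

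**Figure D3:**
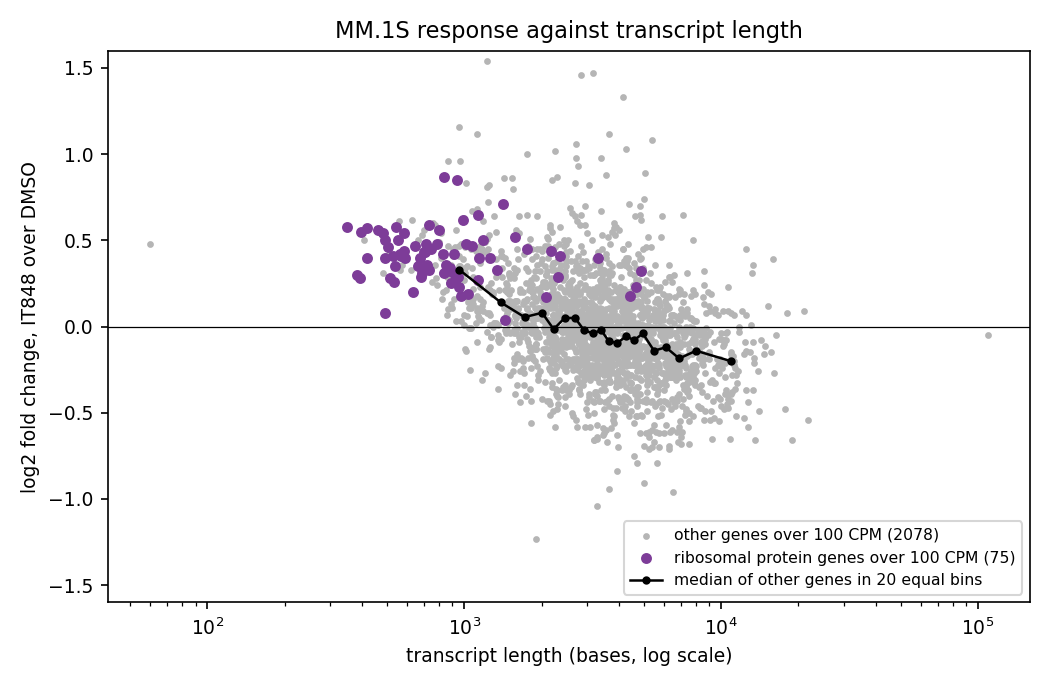
Log2 fold change of IT848 over DMSO in MM.1S (y axis) against transcript length in bases (x axis, log scale), for 2078 other genes over 100 CPM (grey) and 75 ribosomal protein genes over 100 CPM (purple), with 6 genes beyond 1.6 not drawn. The black line joins medians of the other genes in 20 bins of near equal size. It falls with length, and most ribosomal protein genes sit at the short end.

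In U266 no ribosomal protein gene was called in either direction by edgeR, where 4.03% of all tested genes were called higher and 4.98% lower. DESeq2 also called 0 (4.77% and 7.08% of all tested genes), and 3 of the 82 genes had an unadjusted p under 0.05, against 20.8% of all tested genes. These were RPL22L1, RPL38 and RPLP1, named after their values were seen. The median log2 fold change was 0.08 in the group and 0.01 over all tested genes, and 78 of 82 were positive (8647 of all 16782 tested genes). In 24 genes all IT848 libraries lay above all DMSO libraries, as in 14.3% of all tested genes. In 0 genes all IT848 libraries lay below, as in 14.6% of all tested genes. With the length trend over all other genes removed, the group median was 0.04 and 67 genes were positive. With that of genes over 100 CPM removed, the median was 0.01 in the group and over all tested genes. There 48 genes of the group were positive and 34 negative, and 2 were called higher (886 of all 16782 tested genes). Without the 2 libraries with reads of the other line the median was 0.04 and 0 genes were called. A fit of the U266 libraries alone called 16 genes higher and none lower (6.12% and 7.16% of the 15609 genes in that fit, which has its own filter and spread).

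The genes took 6.61%, 6.16% and 6.37% of counts in the U266 IT848 libraries, against 6.08%, 6.16% and 6.00% in the U266 DMSO libraries. The groups met at 6.16%. The means were 6.38 ± 0.226% with IT848 and 6.08 ± 0.0814% with DMSO (SD, n = 3 each; exact two-sided permutation p = 0.2), and the difference of 0.3 points was 0.185 without IT848 replicate 1. Spearman's rho of length in the other abundant genes was -0.322, 0.134 and -0.294 in the IT848 libraries and -0.033, 0.291 and 0.222 in the DMSO libraries. The 2 libraries with negative rho near -0.3 were the 2 with the highest shares.

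RPL22L1 had 11.9, 11.1 and 11.1 CPM in the U266 IT848 libraries, against 8.84, 9.52 and 8.62 in the DMSO libraries. The groups did not overlap, and the log2 fold change was 0.34 ± 0.13 (adjusted p = 0.131). RPL39, at the exit of the peptide tunnel, had 168, 157 and 153 CPM with IT848, against 136, 137 and 133 with DMSO (0.23 ± 0.13, adjusted p = 0.347). RPS12 had 525, 499 and 478 CPM with IT848, against 426, 441 and 431 with DMSO (0.21 ± 0.11, adjusted p = 0.329). RPS21 had 248, 226 and 220 CPM with IT848, against 201, 204 and 194 with DMSO (0.21 ± 0.14, adjusted p = 0.446). In all 4 genes the groups were apart, and the spread of the MM.1S libraries entered the SE. RPL9 and RPS3A, the genes that rose most in MM.1S, stood at 0.06 ± 0.23 and 0.05 ± 0.22 in U266. RPL9 had 929, 824 and 818 CPM with IT848 in U266, against 794, 868 and 798 with DMSO, which overlap. The lowest were RPL15 at -0.03 ± 0.10, RPL7L1 at -0.03 ± 0.05 and RPL4 at -0.02 ± 0.05, and RPS7 and RPSA differed from 0 by less than 0.01 with SEs of 0.15 and 0.12. RPS18 rested on 8 counts with IT848 and 3 with DMSO, a ratio of 2.51 (exact 95% interval 0.602 to 14.7, counting error only).

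The test of the difference between the 2 responses (MM.1S minus U266) called 4 genes higher and none lower, where 8.49% of all tested genes were called higher and 8.94% lower. The median difference was 0.31 in the group, against -0.02 over all tested genes, and 49 of 82 genes had an unadjusted p under 0.05 (31.8% of all tested genes). RPS6 differed by 0.40 ± 0.12 (adjusted p = 0.0433) and RPL12, at the base of the stalk, by 0.30 ± 0.10 (adjusted p = 0.0454). RPL3, near the peptidyl transferase centre, differed by 0.29 ± 0.07 (adjusted p = 0.0139) and RPS2 by 0.28 ± 0.09 (adjusted p = 0.042). RPL3 had 1015, 1107 and 1198 CPM with IT848 in MM.1S, against 839, 877 and 925 with DMSO, and 1368, 1360 and 1406 CPM with IT848 in U266, against 1360, 1325 and 1343 with DMSO. The MM.1S groups were apart for RPL3, and the U266 groups met at 1360 CPM. RPS6 had 884, 829 and 863 CPM with IT848 in U266, against 851, 863 and 824 with DMSO, which overlap. RPL12 had 230, 246 and 278 CPM with IT848 in MM.1S, against 183, 195 and 213 with DMSO, groups that were apart. RPS2 had 228, 249 and 273 CPM with IT848 in MM.1S, against 196, 202 and 217 with DMSO, also apart. Without the 2 libraries with reads of the other line RPL3 differed by the same 0.29 and missed the threshold (adjusted p = 0.0734), but it kept its call when any single library was left out. RPS6, RPL12 and RPS2 each lost theirs without any 1 of the U266 libraries except IT848 replicate 3 for RPS2, and without MM.1S DMSO replicate 1 or 2. RPL12 and RPS2 also lost it without MM.1S IT848 replicate 2 or 3.

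The largest differences, RPL9 and RPS3A at 0.80 ± 0.32 and 0.80 ± 0.31, did not pass (adjusted p = 0.117 and 0.105), nor did RPS7 at 0.59 ± 0.21 and RPS29 at 0.55 ± 0.27. Besides RPS18, which rests on few counts (-1.18 ± 0.84, adjusted p = 0.363), the lowest were RPL22L1 at -0.15 ± 0.18, RPL7L1 at -0.15 ± 0.07 and RPLP2 at -0.01 ± 0.07. The count of called genes was unstable. It was 62 without MM.1S IT848 replicate 1 (12.2% of all tested genes) and 15 without MM.1S DMSO replicate 3 (8.21%). It was 1 or 2 without any other library, 0 without the 2 libraries with reads of the other line (5.18%), and 21 by DESeq2 (11.1% of all tested genes). Removing the length trend over all other genes left RPL3 called higher and RPL7L1 lower (9.82% and 8.1% of all tested genes). With the length trend of other genes over 100 CPM removed, 2 genes (RPL3 and RPL15) were called higher and 13 lower, with a median of -0.05 (8.44% and 11.1% of all tested genes).

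Without IT848, most ribosomal protein mRNAs were lower in MM.1S than in U266. In the DMSO libraries 67 of 82 genes were lower in MM.1S and 6 higher, where 42.1% of all tested genes were lower and 40.6% higher. The median log2 difference was -0.53 in the group and -0.02 over all tested genes, and 15 genes were lower by 1 or more. In 68 genes all MM.1S libraries lay below all U266 libraries and in 7 above, as in 43.2% and 41.6% of all tested genes. The median was -0.52 in the large and -0.53 in the small subunit. With the length trend over all other genes removed, 53 were lower and 9 higher, with a median of -0.33 (40.9% and 41.9% of all tested genes). With that of genes over 100 CPM removed, 70 were lower and 7 higher, with a median of -0.51 (41.9% and 41.0% of all tested genes). Without the 2 libraries with reads of the other line, 62 were lower and 5 higher.

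RPL30 had 80.3, 87.6 and 97.6 CPM in MM.1S, against 286, 303 and 282 in U266 (-1.71 ± 0.13, adjusted p = 2.66e-08). RPS29 had 68.0, 80.8 and 87.9 CPM in MM.1S, against 253, 263 and 241 in U266 (-1.68 ± 0.19, adjusted p = 6.84e-06). RPS6 had 253, 264 and 285 CPM in MM.1S, against 851, 863 and 824 in U266 (-1.66 ± 0.09, adjusted p = 7.26e-10). RPL6 had 334, 351 and 380 CPM in MM.1S, against 1017, 1060 and 1016 in U266 (-1.54 ± 0.06, adjusted p = 7.75e-12). The lines were far apart in each of these genes.

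The genes against that direction were RPS27L, RPL8, RPL26, RPS25, RPS28 and RPS18. RPS27L had 27.1, 29.1 and 31.3 CPM in MM.1S, against 15.4, 18.1 and 15.9 in U266 (0.82 ± 0.10, adjusted p = 4.57e-06). RPL8 had 1150, 1195 and 1262 CPM in MM.1S, against 710, 697 and 711 in U266 (0.77 ± 0.07, adjusted p = 1.45e-07). RPL26 had 265, 279 and 336 CPM in MM.1S, against 181, 193 and 175 in U266 (0.68 ± 0.13, adjusted p = 0.000413). These 3 genes were higher in MM.1S with no overlap. RPS25 was at 0.26 ± 0.11 (adjusted p = 0.0485) and did not pass without any 1 of the U266 libraries, at 0.23 to 0.27, nor without MM.1S DMSO replicate 2 (0.28), DMSO replicate 3 (0.19) or IT848 replicate 2 (0.26). RPS28 was at 0.18 ± 0.06 (adjusted p = 0.0179) and did not pass without any 1 of the U266 DMSO libraries or MM.1S DMSO replicate 3, at 0.13 to 0.18. RPS18 had 73 counts in MM.1S, against 3 in U266, a ratio of 23.9 (exact 95% interval 7.87 to 119, counting error only).

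Paralogues differed from their partners between the lines. RPS27L was higher in MM.1S by 0.82 and RPS27 lower at -1.03 ± 0.12. RPL39L was lower at -0.65 ± 0.12, whereas RPL39 stood at 0.25 ± 0.13 (adjusted p = 0.0887). RPL26L1, at 0.17 ± 0.13, did not pass while RPL26 did, and RPL22L1 and RPL22 stood at -0.02 ± 0.13 and -0.04 ± 0.07. RPL7L1 and RPL7 were lower, at -0.22 ± 0.05 and -0.35 ± 0.10. The difference within a pair was not tested. All 3 stalk genes were lower in MM.1S, RPLP0 at -1.37 ± 0.09, RPLP1 at -0.92 ± 0.06 and RPLP2 at -0.64 ± 0.05. Among the other genes with known roles, RPL5 was at -1.53 ± 0.09, RPL10 at -1.28 ± 0.06, RPS14 at -1.0 ± 0.11, RPL11 at -0.63 ± 0.06, RPL3 at -0.61 ± 0.05, RPS19 at -0.53 ± 0.08, RPS3 at -0.41 ± 0.09 and RPSA at -0.33 ± 0.12. All 8 passed the threshold, RPSA not without MM.1S DMSO replicate 1 or 2, at -0.28 and -0.31. In 62 genes MM.1S was called lower than U266 under DMSO and also called higher with IT848 than with DMSO. These comparisons share the MM.1S DMSO libraries, and the share of all tested genes with both calls is not given here. With the length trend of genes over 100 CPM removed, 22 ribosomal protein genes were called higher by IT848 in MM.1S and 26 lower.

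**Figure D4:**
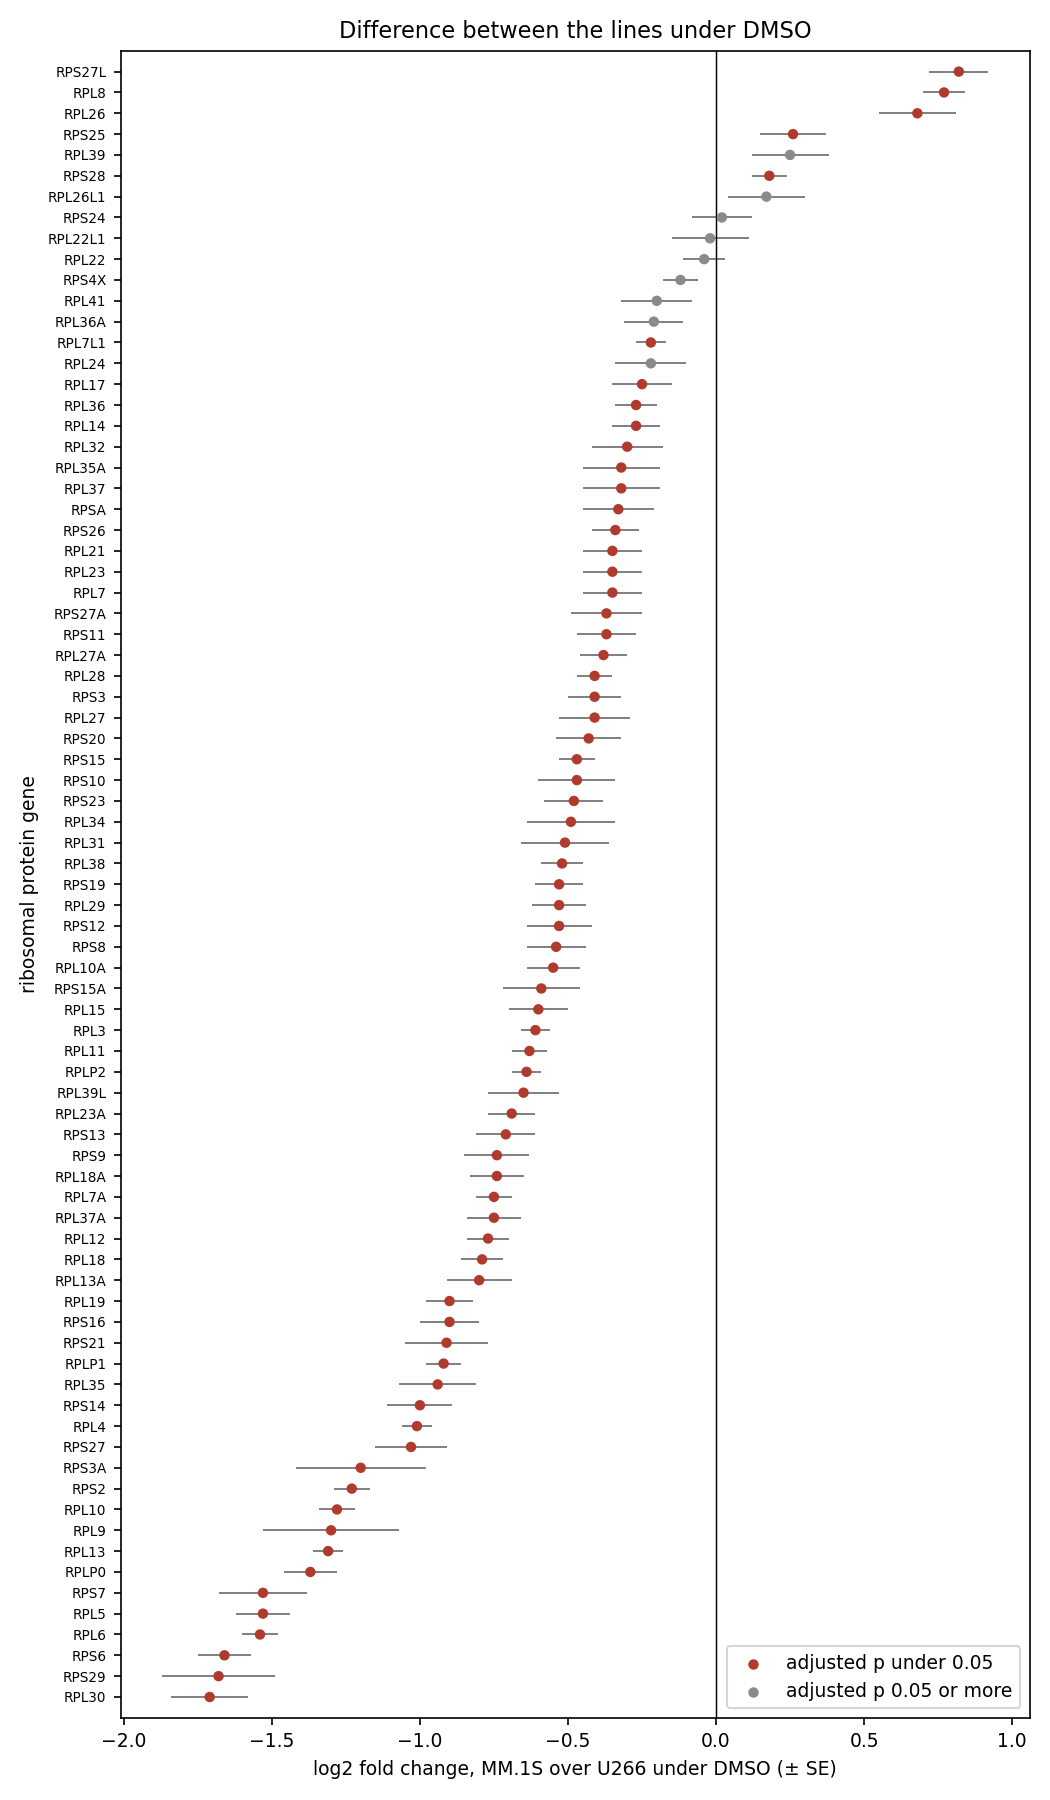
Log2 fold change of MM.1S over U266 under DMSO (x axis, ± SE) for each ribosomal protein gene (y axis), red where the adjusted p was under 0.05 and grey where it was not. RPS18, for its few counts, and 2 other genes are not drawn. Values run from -1.71 for RPL30 to 0.82 for RPS27L, and most lie left of 0.

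Subunits of the same ribosome whose symbols did not match were read beside the group. FAU, which encodes a fusion to RPS30, rose in MM.1S by 0.36 ± 0.09, and RPL36AL rose by 0.16 ± 0.06. GNB2L1, which encodes RACK1, had 283, 283 and 293 CPM with IT848, against 270, 279 and 296 with DMSO (0.02 ± 0.04). None of the 4 was called in U266, and all 4 were lower in DMSO-treated MM.1S, GNB2L1 at -0.81 ± 0.04 among them.

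The counts of the lists below stand against 18.7% higher and 19.6% lower of all tested genes in MM.1S, 4.03% and 4.98% in U266, and 40.6% and 42.1% between the lines under DMSO. At the U266 shares, lists of this size would hold few calls or none. Of 17 other translation genes with oligopyrimidine mRNAs, 9 (52.9%) were called higher and 3 (17.6%) lower in MM.1S, and 0 were called in U266. TPT1, a translationally controlled protein, had 1469, 1669 and 2244 CPM with IT848 in MM.1S, against 1019, 1070 and 1220 with DMSO (0.70 ± 0.12, adjusted p = 0.000613). The elongation factor EEF1B2 rose by 0.44 ± 0.12. In DMSO-treated MM.1S 13 of the 17 were lower than in U266 and 2 higher, with a median of -0.67 and the initiation factor subunits EIF3H and EIF3L lowest in the list, at -1.17 ± 0.07 and -1.11 ± 0.04. Of 30 general initiation factors, 5 (16.7%) rose and 8 (26.7%) fell in MM.1S with no length trend removed, near the shares of all genes. EIF4G1 was at -0.37 ± 0.05 and EIF3A at -0.32 ± 0.05. With the length trend over all other genes removed, 5 rose and 9 fell (19.1% and 18.2% of all tested genes). With that of genes over 100 CPM removed, 5 rose and 15 fell, a larger share lower than the 22.4% of all tested genes. Before any length trend was removed, 2 rose and 1 fell in U266, with EIF1 at 0.23 ± 0.04 and EIF6 at 0.18 ± 0.05. EIF6 lost its call when any 1 U266 library but IT848 replicate 2 was left out. It also lost its call without the 2 libraries with reads of the other line. Under DMSO 14 of the 30 (46.7%) were lower and 10 (33.3%) higher in MM.1S, also near the shares of all genes, with EIF5 at -2.71 ± 0.04 and EIF3G at -1.88 ± 0.04.

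Among 14 genes that control translation of oligopyrimidine mRNAs, 1 rose and 6 fell in MM.1S, and 3 rose and 1 fell in U266. These genes are long, with a median of 4590 bases. With the length trend over all other genes removed, 3 (21.4%) fell in MM.1S, where 18.2% of all tested genes fell. With that of genes over 100 CPM removed, 4 (28.6%) fell, against 22.4% of all tested genes. DDIT4, an inhibitor of mTOR signalling, had 5.94, 7.72 and 6.68 CPM with IT848 in MM.1S, against 11.2, 10.8 and 11.0 with DMSO. In U266 it had 50.9, 48.9 and 50.5 CPM with IT848, against 30.8, 29.6 and 31.5 with DMSO. It fell by 0.69 ± 0.08 on the log2 scale in MM.1S and rose by 0.71 ± 0.07 in U266, and the difference was -1.41 ± 0.10 (adjusted p = 6.02e-07). RHEB, the GTPase that activates mTOR, had 75.2, 80.9 and 89.7 CPM with IT848 in MM.1S, against 53.6, 55.4 and 57.9 with DMSO (0.56 ± 0.06, adjusted p = 7.8e-06). EIF4EBP1, which holds back the cap-binding protein EIF4E, rose by 0.43 ± 0.05 in U266. Under DMSO 7 of the 14 were lower and 3 higher in MM.1S, with PDCD4 at -2.15 ± 0.04 and SESN2 at -1.48 ± 0.07.

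Of 16 chaperones, importers and turnover factors of ribosomal proteins, 1 rose and 9 fell in MM.1S and none was called in U266. IPO5, an importer, had 129, 130 and 138 CPM with IT848, against 176, 179 and 180 with DMSO (-0.43 ± 0.04), and MDM2, the ubiquitin ligase that RPL5 and RPL11 bind, had 794, 818 and 777 CPM with IT848, against 1102, 1057 and 985 with DMSO (-0.40 ± 0.05). Under DMSO 6 were higher and 6 lower in MM.1S, with MDM2 at 1.92 ± 0.05 and IPO9 at 1.22 ± 0.05. Of 76 tested mitochondrial ribosomal protein genes, 21 rose and 5 fell in MM.1S, with a median of 0.16 and a median length of 1185 bases, and MRPL18 and MRPS6 rose most, by 0.87 ± 0.08 and 0.74 ± 0.07. After removal of the length trend of genes over 100 CPM, 7 of the mitochondrial genes were called higher and 28 lower in MM.1S, 5 and 6 of the 17 oligopyrimidine genes, and 1 and 3 of the 4 subunits with other symbols. For the mitochondrial genes under DMSO, MM.1S stood below U266 in 31 and above it in 28, and the median was 0.00. With the length trend over all other genes removed these counts were 24 and 37.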

How the data were processed

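The submitters' processing notes name the build hg19 and the tools STAR 2.5.2b for alignment, Trimmomatic 0.36, Subread 1.5.2, whose featureCounts counts reads, and bcl2fastq. Strand setting and treatment of reads with several alignments are not stated there. The deposited tables hold whole read counts per transcript, with the authors' FPKM and TPM beside them. The deposited FPKM, with the counts, gave transcript lengths, and the deposited TPM gave levels per length.

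Counts of all 51780 transcripts were summed per symbol, so that a read given to several transcripts of a gene would count more than once. Transcripts of the same gene often held nearly equal counts. The lowest over the highest was 0.986 for RPL17 (8 transcripts) and 0.996 for RPS24 (6 transcripts), but 0.66 for RPL15 (6 transcripts). The counts of 12 libraries were tested with edgeR 4.0.16 (quasi-likelihood F test, R 4.3.3, TMM scaling, minimum count 10 in the filter), with a mean for each group, no replicate block and Benjamini-Hochberg adjustment over 16782 genes. A gene was called at an adjusted p under 0.05. CPM are scaled by TMM. Alternatives were DESeq2 1.42.0, other scaling, no filter, the most counted transcript, length trends (local fit with span 0.3) as offsets, a replicate block, each line alone and leaving out libraries. RNA depth was 50627690 to 72039748 summed counts per library, and 22887471 to 32913386 with the most counted transcript of each gene only. By that transcript the genes took 5.78% of counts with IT848 and 4.48% with DMSO in MM.1S, and 7.59% and 7.23% in U266. Named genes are the 5 highest and 5 lowest of each comparison, genes called against the main direction, paralogue pairs, genes with known roles, and the 2 largest changes called in each pathway list. The genes and lists were chosen with earlier results of these data known. Transcript GC content came from GENCODE transcripts. Intervals cover counting error only. A few genes that this rule names are not reported here.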

Additional observations from a re-analysis of the deposited data

Results flagged for a closer look

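The test of the difference between the responses to IT848 (MM.1S minus U266, log2, edgeR) called 4 of 82 ribosomal protein genes higher (4.88%). Over all tested genes 8.49% were called higher. RPL3 kept its call under both length trends. RPS6, RPL12 and RPS2 lost theirs under both, and also when single libraries were left out, as given above. None was called without the 2 libraries with reads of the other line. The difference was 0.40 for RPS6 (0.42 in MM.1S, 0.02 in U266), 0.30 for RPL12 (0.35 and 0.05), 0.29 for RPL3 (0.33 and 0.04) and 0.28 for RPS2 (0.29 and 0.01). Among the pathway genes it was -1.41 for DDIT4 (-0.69 in MM.1S, 0.71 in U266), 0.63 for TPT1 (0.70 and 0.07), -0.43 for MDM2 (-0.40 and 0.03), 0.39 for RHEB (0.56 and 0.16), -0.35 for IPO5 (-0.43 and -0.09), -0.33 for EIF4EBP1 (0.10 and 0.43), 0.32 for MRPS6 (0.74 and 0.42) and -0.32 for EIF4G1 (-0.37 and -0.06). The difference for TPT1 missed the threshold without U266 DMSO replicate 2 (0.61), U266 IT848 replicate 2 (0.61), MM.1S DMSO replicate 1 (0.58) or MM.1S DMSO replicate 2 (0.61). That for MRPS6 missed it without any 1 library except MM.1S DMSO replicate 3 or MM.1S IT848 replicate 1, at 0.25 to 0.36, and under both length trends, at 0.20 and 0.05. Without the 2 libraries with reads of the other line, TPT1 (0.65), MRPS6 (0.33) and EIF4EBP1 (-0.31) missed it.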

How the results depend on the processing

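Of 117 named results, 26 changed sign in at least 1 setting. The cause of the changes was not tested.

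With the length trend of genes over 100 CPM removed (chosen after seeing the data), called genes were 22 higher and 26 lower in MM.1S (median -0.03), 2 higher in U266, and 2 higher and 13 lower in the response difference (median -0.05). Signs also changed in MM.1S for RPS19 (-0.02), RPL26L1 (-0.03), RPL39L (-0.03), RPL7 (-0.07), RPS27 (-0.07), RPL39 (-0.08), RPL5 (-0.12), RPL4 (-0.13), FAU (-0.16), RPL11 (-0.26), RPLP1 (-0.27), RPLP2 (-0.47) and RPS18 (-0.49), in U266 for RPS7 (-0.06), in the response difference for RPS2 (-0.01), RPL12 (-0.08) and RPL4 (-0.10), and between lines for RPL22 (0.05) and RPL22L1 (0.06). With the trend over all other genes removed, 1 gene was called higher and 1 lower in the response difference, and the line median was -0.33. Signs changed for RPL4 (-0.05), RPLP2 (-0.10) and RPS18 (-0.14) in MM.1S, RPS7 (-0.03) in U266, RPL4 (-0.02) in the response difference, and RPL22 (0.07) and RPL22L1 (0.10) between lines.

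The response difference called 21 genes by DESeq2, 1 without the low-count filter and 0 without the 2 libraries with reads of the other line, where 0 were lower in MM.1S. U266 alone gave 16 higher. RPS7 in U266 was at -0.01 by DESeq2 and by its scaling and -0.04 without the 2 libraries. RPLP2 in the response difference was at 0.01 in these 3 settings and 0.0029 without the filter. RPS18 in MM.1S was at -0.01 with the most counted transcript and -0.13 without the 2 libraries.

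Leaving out 1 library at a time gave 1 to 62 called genes in the response difference, 0 to 1 higher in U266 and 0 to 1 lower in MM.1S. The ranges that crossed 0 were, between lines, -0.10 to 0.01 for RPL22 and -0.06 to 0.02 for RPL22L1, in MM.1S, -0.0011 to 0.08 for RPL4, -0.02 to 0.34 for RPL22L1 and -0.14 to 0.39 for RPS18, in U266, -0.05 to 0.0042 for RPL15, -0.04 to 0.0022 for RPL4, -0.07 to 0.01 for RPL7L1, -0.04 to 0.05 for RPS7 and -0.02 to 0.02 for RPSA, and in the response difference, -0.35 to 0.004 for RPL22L1 and -0.04 to 0.04 for RPLP2.

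With the replicate number as a block, 66 of 82 genes were called higher in the response difference (12.8% of all tested genes) and 6 higher in U266 (5.77%). Libraries with the same number shared only that number, with correlations of 0.117, -0.056 and 0.1 in MM.1S and 0.06, 0.005 and -0.001 in U266, and not every library correlated best with its own number. RPL3L, with 18 counts in all, was too low to test, and few counts limit RPS18.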
